A study of Mus musculus with 17 samples.

Results

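Tumor cells and monocyte-derived macrophages (MDMs) sorted from the lung tumors of KLG4 mice were compared with each other. The comparison used 2 tumor cell libraries and 2 MDM libraries, 4 of the 17 samples of the series, and 4 libraries of the same populations from KL mice served for a comparison of genotypes. KL mice carried Lkb1fl/fl, from which Cre removes Lkb1 (gene symbol Stk11), beside a further Cre-dependent allele that both genotypes share. KLG4 mice carried in addition Gpx4m/m, a Gpx4 gene flanked by rox sites next to a tamoxifen-dependent Dre recombinase under the CAG promoter, which Cre must release first. Both genotypes had received Cre adenovirus through the nose and tamoxifen, and cells were taken 10 weeks after the virus. MDMs of KLG4 mice carry the same alleles, but removal of Gpx4 is designed for the cells that Cre has recombined. Tumor cells were gated as CD45-CD31-EpCAM+ in most passages of the study, but passages of its methods print CD45+ or CD45.2+, and the gate for MDMs was not given in the sources used here.

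The tables of both populations were joined by gene name, which gave 12570 genes, and 11503 with at least 1 RPKM (reads scaled by gene length and library depth) in at least 2 of the 4 libraries were tested. Another 3819 genes were held by the tumor cell table and 818 by the MDM table alone. Of these, 1952 and 425 had at least 1 RPKM in both KLG4 libraries of their table, and they are given here as levels with no test. The recovered depth was 17.6 M and 15.9 M counted reads in tumor cells and 26.1 M and 26.0 M in MDMs, where M is mega. All levels below are RPKM rescaled to a common sum over the joined genes without mitochondrially encoded (mt-) genes, and each pair of levels gives replicate 1 and then replicate 2. Differences are log2(level + 0.1) of tumor cells minus that of MDMs, so a positive value is higher in tumor cells. RPKM is a level per length, so levels of different genes can be set side by side. A gene was called when its adjusted p in limma was under 0.05 and its difference was at least 2-fold.

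Lung tumors of this kind arise from epithelial cells of the alveoli and small airways, and their cells keep epithelial junctions, keratins and the transcription factors that hold the lung epithelial program. Monocytes that enter such tumors become macrophages under colony-stimulating factors, and macrophage genes are held open by PU.1, the product of Spi1. Both populations exchange cytokines, growth factors, lipids and complement proteins. A comparison of this kind shows in which sorted libraries a ligand or its receptor is higher, not which cells of a mixed library made it.

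Of the 11503 genes, 5781 were called, 50.3% of those tested. Tumor cells had the higher level for 3329 genes (28.9%) and MDMs for 2452 (21.3%). Differences of at least 16-fold numbered 437 in tumor cells and 40 in MDMs, but a gene could pass the filter through 1 population alone, and the size of such a difference depends on the 0.1 added to each level. Among the 6168 genes with a mean of at least 5 RPKM, more calls were higher in MDMs (1788) than in tumor cells (1311, 42.3% of these calls). The median difference over all tested genes was 0.15, and it lay between -0.15 and 0.45 over 7 ways of scaling the libraries. The share of calls on the tumor cell side was 57.6%, against 45.5% when mt- genes were kept in the sum, 46.1% under quantile scaling and 69.5% when 7 nuclear copies of mt- genes were left out of it as well. Those copies held 21.3% and 21.1% of the sum in tumor cells and 1.80% and 2.78% in MDMs. The number of calls was 5696 to 5795 when each library was left out in turn. The tables of both populations had been processed and filtered separately, so cell type and table cannot be told apart. Tumor cell replicates are given as separate mice, and no source used here says whether MDM replicates came from separate animals. The KLG4 tumor cell pair had a chi-square of 3.43 per gene, against 71.2 for the KL tumor cell pair and 28.9 for the KLG4 MDM pair. The p-values measure only the spread between these libraries, which may be technical.

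The genes altered in the model were read first. Gpx4, the peroxidase that reduces lipid hydroperoxides (chromosome 10, 80047166 to 80056439, plus strand of GRCm38), stood at 53.4 and 58.6 in tumor cells and 99.4 and 103 in MDMs. Both tumor cell libraries lay below both MDM libraries. The difference of -0.85 (SE 0.08, adjusted p = 0.000348 in limma) was less than 2-fold, so the gene was not called, but it passed 2-fold with mt- genes in the sum (-1.16), under TMM scaling (-1.05) and with limma-voom (-1.01). The files give 1 value for the whole gene, so reads from parts of Gpx4 that are not removed count too. Stk11, the kinase that the model removes from tumor cells, was at 58.4 and 58.3 in tumor cells and 216 and 186 in MDMs, a difference of -1.78 (adjusted p = 5.07e-05).

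The labels were checked against the markers of each cell type. Of 21 tested genes of epithelial junctions and keratins, 21 were higher in tumor cells, with a median difference of 5.19. Their summed level was 3814 and 3838 in tumor cells and 39.97 and 88.1 in MDMs, and MDM replicate 2 held more of it than replicate 1. Of 25 tested macrophage identity genes, 19 were higher in MDMs and 0 in tumor cells, with a median of -2.0. Their summed level was 1479.5 and 1515 in tumor cells, against 5213 and 4780.5 in MDMs, so leukocyte transcripts were present in both populations. Ptprc, which encodes the CD45 antigen of the gate, was at 25.3 and 25.9 in tumor cells and 117 and 113 in MDMs. Csf1r, the receptor that defines the macrophage lineage, was at 7.36 and 7.76 against 39.2 and 43.5. The 6 members that were not called included the complement C1q genes C1qa, C1qb and C1qc, with differences of 0.06, 0.24 and 0.34, and Aif1, at -0.04.

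Markers of further cell types moved with the comparison. Of 9 tested neutrophil markers, 7 were higher in MDMs and 1 (Ltf) in tumor cells, with summed levels of 21379 and 19282 in MDMs and 2628 and 2554 in tumor cells, and Ly6g, which defines neutrophils in the mouse, was held by the MDM table alone at 8.43 and 6.46. The neutrophil sum in MDMs was above that of the 25 tested macrophage identity genes in the same libraries, 5213 and 4780.5. S100a9 alone was at 19024 and 16978 in those MDM libraries, so this order rests on 1 gene. Of 6 tested fibroblast markers, 6 were higher in tumor cells, with summed levels of 154 and 156 against 1.73 and 1.73. Of 8 tested plasma cell markers, 6 were higher in tumor cells, with summed levels of 2009 and 2041 against 90.1 and 55.6. T cell and B cell markers were held almost wholly by the tumor cell table, 8 of each list, with Cd3e at 1.30 and 1.47 and Cd79a at 1.88 and 1.51 there. The part of these cells in the results was not tested. Sex-linked transcripts differed as well, with Xist of the inactive X chromosome at 4.15 and 3.95 in tumor cells and 20.6 and 20.5 in MDMs, and the Y-linked Ddx3y held by the tumor cell table alone at 14.7 and 16.2. Each KLG4 tumor cell library thus held both transcripts, and whether a library came from 1 mouse was not tested. Cell type and the sex of the mice can therefore not be told apart for sex-linked genes, and the part of sex in other results was not tested. In bulk libraries, fewer cells of a type and less RNA per cell cannot be told apart.

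**Figure D1:**
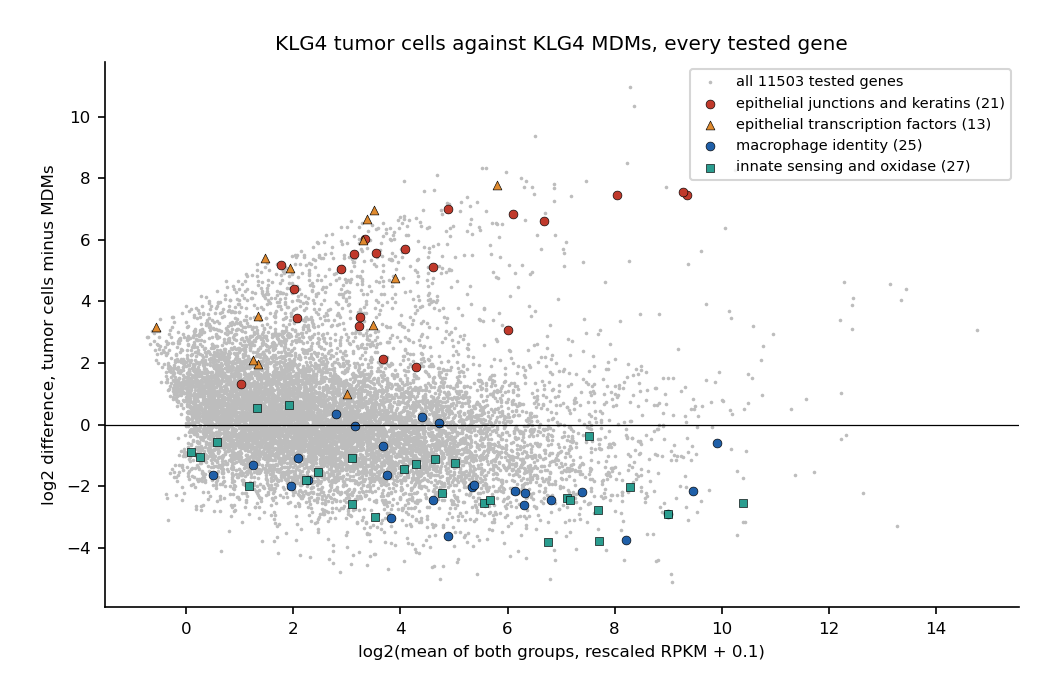
Each point is 1 of the 11503 tested genes, with the log2 of its mean rescaled RPKM + 0.1 over both groups on the x axis and the log2 difference of KLG4 tumor cells minus MDMs on the y axis, and coloured marks show the members of 4 lists. The 21 genes of epithelial junctions and keratins lie above 0 and most of the 25 macrophage identity genes lie below it.

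The 10 genes with the largest difference on the tumor cell side included secretoglobins of the airway and a trefoil peptide of the stomach. Dpcr1 (chromosome 17, 35635752 to 35643695, minus strand), a mucin-like membrane gene, was at 629.8 and 623 in tumor cells and 0.0156 and 0.746 in MDMs, a difference of 10.97 (SE 0.89, adjusted p = 0.000212). Tff1 (chromosome 17, 31161396 to 31165053, minus strand), a trefoil peptide of gastric mucus, was at 662 and 658 against 0.170 and 0.849, a difference of 10.35 (SE 0.57, adjusted p = 5.98e-05). Scgb1a1 (chromosome 19, 9083636 to 9087958, minus strand), the main secretoglobin of club cells, was at 5999.9 and 6140.2 against 17.1 and 19.9, a difference of 8.36 (SE 0.09, adjusted p = 9.99e-06). In all 3, both tumor cell libraries were far above both MDM libraries, and the MDM libraries differed from each other most in Dpcr1. The other 7 genes with the largest differences were Krt23, Scgb3a1, Serping1, Il33, Clu, Cyp2f2 and Cygb, with differences between 8.10 and 9.36. Krt23 was listed at 0 in MDM replicate 1 and at 0.674 in replicate 2, so its fitted difference depends on the 0.1 added to each level.

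**Figure D2:**
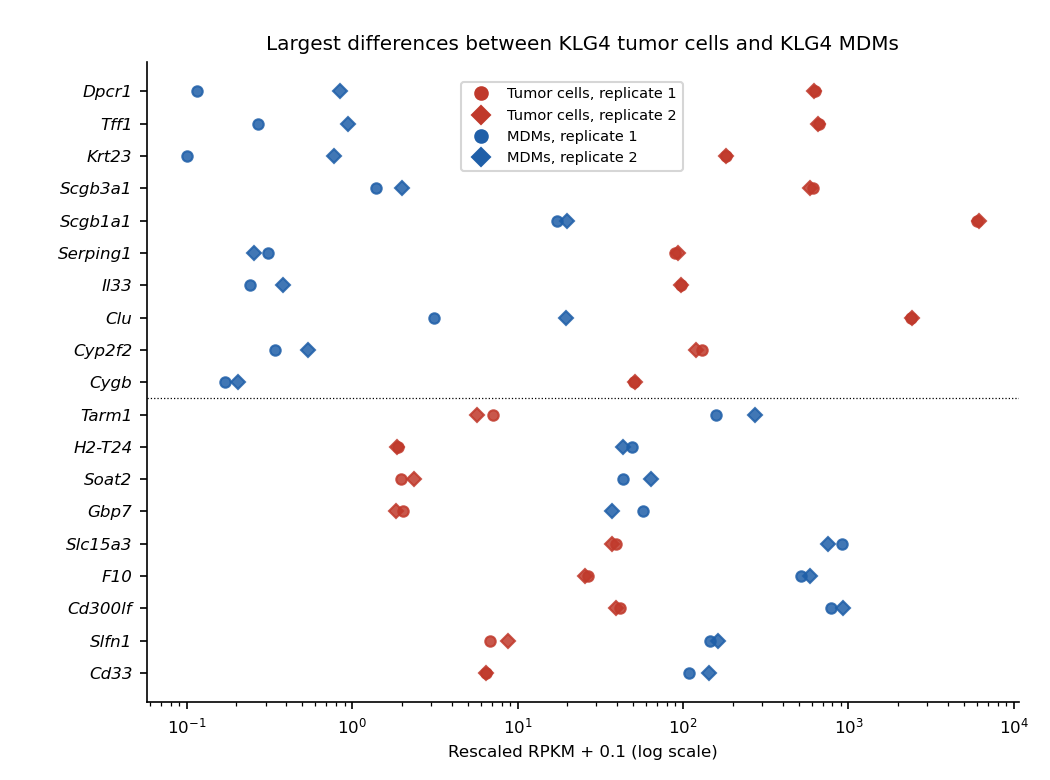
Levels of the genes named for the largest differences in each direction, tumor cell side on top, are plotted as rescaled RPKM + 0.1 on a log axis for each of the 4 libraries, circles for replicate 1 and diamonds for replicate 2. Tumor cell and MDM libraries do not overlap for any gene shown, and the MDM replicates lie apart for Dpcr1, Tff1, Krt23 and Clu.

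Genes of the alveolar and airway epithelium were higher in tumor cells. Of 13 tested genes of AT2 cells, the surfactant-making cells of the alveolus, 11 were higher in tumor cells and 1 in MDMs (median 3.42). Sftpc, the surfactant protein that marks AT2 cells, was at 314 and 318 in tumor cells and 24.3 and 35.6 in MDMs, a difference of 3.42. Sftpb, a further surfactant protein, was at 248 and 264 against 2.01 and 11.2, a difference of 5.71. Both tumor cell libraries exceeded both MDM libraries in each. Napsa, a protease of surfactant processing, was the member higher in MDMs, at 2.46 and 2.80 in tumor cells and 5.04 and 5.69 in MDMs. Its difference of -1.0 was at the threshold and fell to -0.91 and -0.92 without tumor cell replicate 1 and MDM replicate 2, where it was not called. Of 8 tested AT1 genes, which mark the flat gas-exchange cells, 6 were higher in tumor cells and Vegfa in MDMs. Aqp5, a water channel of AT1 cells, was at 210.4 and 198 against 0.684 and 3.75, and Ager was at 51.99 and 53.7 against 5.40 and 8.38. Of 5 tested club and ciliated cell genes, 5 were higher in tumor cells (median 8.19). Foxj1, the factor of the ciliary program, was held by the tumor cell table alone at 16.9 and 18.8, and so was Tekt1, a protein of cilia, at 54.8 and 61.3.

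Junction and keratin genes were among the highest of the tumor cell libraries. Krt8, a keratin of simple epithelium, was at 1255 and 1219 in tumor cells and 2.30 and 17.9 in MDMs (adjusted p = 0.000838). Its partner Krt18 was at 1264 and 1312 against 2.71 and 19.4 (adjusted p = 0.000762). The MDM replicates differed several-fold from each other in both genes, with replicate 2 the higher. Epcam, the surface antigen of the gate, was at 203 and 200.2 against 0.958 and 3.98, a difference of 6.60. Cdh1 (E-cadherin) was at 115 and 113 against 11.8 and 15.8, a smaller difference of 3.06. Clu, a secreted chaperone, also differed several-fold between MDM replicates, at 3.02 and 19.5, below 2393 and 2412 in tumor cells.

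Transcription factors of epithelium were higher in tumor cells. Of 13 tested epithelial factors, 12 were higher in tumor cells and 0 in MDMs, with a median of 4.78. Elf3, an ETS factor of epithelial differentiation, was at 111 and 110.4 in tumor cells and 0.294 and 0.549 in MDMs, a difference of 7.78 (SE 0.25, adjusted p = 1.87e-05). Foxa2, a pioneer factor of endoderm, was at 23.2 and 21.9 against 0 and 0.223, and its relative Foxa1 at 20.4 and 20.5 against 0 and 0.305. Both forkhead genes were listed at 0 in MDM replicate 1. Klf5 stood at 27.2 and 30.5 against 1.02 and 0.896, and Grhl2, which holds junction genes active, at 5.11 and 5.51 against 0 and 0.0589. Nkx2-1, the master factor of lung epithelium, was held by the tumor cell table alone at 4.65 and 5.86. Sox2 was held there at 7.20 and 7.87 and Sox9 at 9.0 and 9.04. Hopx was the tested member that was not called, at 10.3 and 10.7 against 5.59 and 4.92, although it passed 2-fold (1.08) without MDM replicate 1.

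Macrophage factors were less uniform. Of 22 tested, 10 were higher in MDMs (45.5%) and 4 in tumor cells (18.2%), beside 21.3% and 28.9% of all tested genes. The median was -0.90. Spi1 (PU.1) was at 24.9 and 25.3 in tumor cells and 113 and 99.3 in MDMs, a difference of -2.07 (SE 0.09, adjusted p = 3.47e-05). Zeb2, a factor of myeloid differentiation, was at 16.2 and 15.4 against 53.02 and 49.7. All MDM libraries exceeded all tumor cell libraries in both genes. The 4 factors higher in tumor cells were Maf, Bhlhe41, Klf4 and Atf3. Klf4, which epithelia also use, was at 173 and 163 against 62.8 and 43.01, and the stress-induced Atf3 was at 599.7 and 602 against 304 and 228. Atf3 (0.98) and Bhlhe41 (0.98) fell just under 2-fold without MDM replicate 2, and both did so under TMM scaling. Runx1 and Bhlhe40 were not called, with differences of -0.06 and 0.03.

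Promoter windows of genes that moved are shown because the factors above bind DNA, and the windows let their letters be seen beside the levels. Each window is the 250 bases before the gene start in RefSeq for GRCm38.p6, printed 5′ to 3′ on the strand of the gene, with the motif in capitals. The motif for FOXA factors was TGTTTAC and that for PU.1 was GAGGAAG, both searched on both strands. Of 12 epithelial factors called higher in tumor cells, 8 had a window, and only that of Foxa1 held one of the epithelial motifs. Il33, Itgam and S100a8 were chosen after their values were seen. The windows lie at chr12:57546112-57546361 (Foxa1, minus strand), chr19:29924863-29925112 (Il33), chr7:128062390-128062639 (Itgam) and chr3:90668821-90669070 (S100a8). The match begins 141, 162, 84 and 171 bases before the start in the same order, and in Foxa1 and S100a8 it is the reverse complement.
Foxa1: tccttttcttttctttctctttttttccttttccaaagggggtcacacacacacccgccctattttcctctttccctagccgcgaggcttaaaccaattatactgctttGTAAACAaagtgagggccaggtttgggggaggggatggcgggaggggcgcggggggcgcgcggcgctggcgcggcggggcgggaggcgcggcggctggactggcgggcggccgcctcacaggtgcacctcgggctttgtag
Il33: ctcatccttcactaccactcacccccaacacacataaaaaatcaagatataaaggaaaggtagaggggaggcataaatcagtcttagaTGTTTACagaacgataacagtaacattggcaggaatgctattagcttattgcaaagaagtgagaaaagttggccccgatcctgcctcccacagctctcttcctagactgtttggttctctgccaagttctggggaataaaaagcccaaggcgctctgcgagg
Itgam: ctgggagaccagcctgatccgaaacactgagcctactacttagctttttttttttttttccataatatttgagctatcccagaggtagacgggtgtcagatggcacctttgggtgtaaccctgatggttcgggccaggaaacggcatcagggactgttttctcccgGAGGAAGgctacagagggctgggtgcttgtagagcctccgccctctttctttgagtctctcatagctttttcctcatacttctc
S100a8: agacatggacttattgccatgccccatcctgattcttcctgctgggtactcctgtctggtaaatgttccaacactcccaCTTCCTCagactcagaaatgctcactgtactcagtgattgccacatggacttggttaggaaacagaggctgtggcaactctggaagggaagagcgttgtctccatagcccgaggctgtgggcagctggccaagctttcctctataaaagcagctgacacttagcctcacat

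The levels of these genes differed in opposite directions. Il33, an alarmin cytokine of epithelial barriers, was at 96.7 and 97.1 in tumor cells and 0.141 and 0.281 in MDMs. Itgam, which encodes CD11b of the complement receptor CR3, was at 40.7 and 41.1 against 524 and 579. S100a8, a calcium-binding protein of neutrophils and monocytes, was at 139 and 137 against 1257 and 1113. Across genes with a window, 20.04% of the 454 genes at least 4-fold higher in MDMs held the PU.1 motif, against 10.2% of the 1038 genes at least 4-fold higher in tumor cells and 11.4% of all 8007. The AP-1 motif TGANTCA was held by 10.6%, 4.91% and 4.43% in the same order. The FOXA motif was held by 1.76%, 2.50% and 2.15%, the NKX2 motif CACTTGA by 2.20%, 1.35% and 1.59%, and the GRHL motif AACCGGT by 0.881%, 1.73% and 1.30%. These shares describe letters in a short window and were not tested. Among the 10 macrophage factors called higher in MDMs, 7 had a window and 0 of them held the PU.1 motif.

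On the MDM side, Tarm1, an activating receptor of myeloid cells, was at 7.02 and 5.59 in tumor cells and 158 and 271 in MDMs, a difference of -5.02 (SE 0.27, adjusted p = 5.64e-05). The MDM libraries were above the tumor cell libraries by more than the spread of either pair. H2-T24, Soat2, Gbp7, Slc15a3, F10, Cd300lf, Slfn1 and Cd33 were among the 10 as well, with differences between -4.61 and -4.28. Soat2, which esterifies cholesterol, was at 1.86 and 2.28 against 43.1 and 64.1. F10, clotting factor X, was at 26.4 and 25.4 against 517 and 586. Cd300lf, a lipid-binding immune receptor, was at 41.5 and 39.3 against 779.8 and 927. Among the genes with the highest levels in MDMs were S100a9, at 19024 and 16978 against 1879 and 1786 in tumor cells, Fth1, Rnf149, Ccl6, Il1b, Slfn2, Jdp2, S100a8 and Ctss.

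Among lists with at least 5 tested genes, innate sensing had the largest share of members higher in MDMs. Of 27 tested genes of pathogen sensing and the phagocyte oxidase, 22 were higher in MDMs and 0 in tumor cells, with a median of -1.98. Ncf4, a subunit of the oxidase, was at 13.05 and 15.2 in tumor cells and 184 and 218 in MDMs, and Ncf1, a further subunit, at 29.1 and 26.7 against 324 and 451. Cd14, the co-receptor for lipopolysaccharide, was at 117 and 124 against 874 and 937, and Tlr4 was at 2.42 and 2.52 against 19.2 and 21.3. All MDM libraries exceeded all tumor cell libraries in these 4 genes. Nlrp3, the inflammasome sensor, was not called, at 163 and 157 against 234 and 182.

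Of 27 tested lysosomal genes, 17 were higher in MDMs (63%) and 2 in tumor cells (7.41%), with a median of -1.18. Over all tested genes these shares were 21.3% and 28.9%. Ctsd, a lysosomal protease, was at 163 and 170.4 in tumor cells and 511 and 508 in MDMs, and Ctsb, a further one, at 76.9 and 76.9 against 217 and 197. Ctss, the protease that trims the class II invariant chain, was at 259 and 256 against 1362 and 952. The MDM replicates differed from each other by more in Ctss than in Ctsd or Ctsb. The 2 genes higher in tumor cells were Ctsh (38.6 and 41.5 against 15.2 and 13.5), which AT2 cells also use, and Npc2 (74.6 and 75.97 against 38.2 and 34.5), which carries cholesterol out of lysosomes. Npc2 fell to 0.98, under 2-fold, without MDM replicate 2, and 10 of the 27 genes were higher in MDMs when the nuclear copies were left out of the sum.

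**Figure D3:**
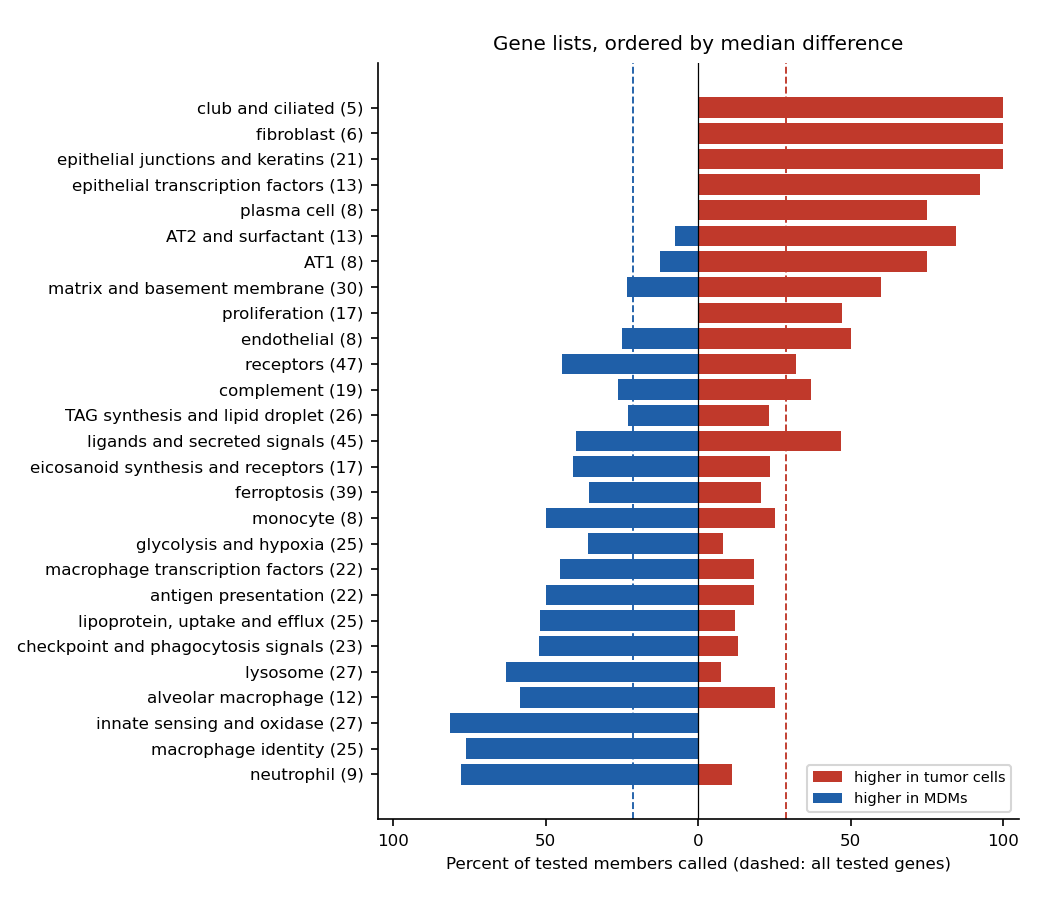
For each list with at least 5 tested genes (number in parentheses), bars give the percent of tested members called higher in tumor cells (red, to the right) or in MDMs (blue, to the left), and dashed lines mark 28.9% and 21.3%, the shares over all tested genes. The epithelial junction, club and ciliated cell and fibroblast lists reach furthest to the right, and the innate sensing, neutrophil and macrophage identity lists reach furthest to the left.

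Ligands and receptors were compared to see in which sorted libraries each side of a signal was higher. Of 45 tested ligands, 21 were higher in tumor cells (46.7%) and 18 in MDMs (40%), beside 28.9% and 21.3% of all tested genes. Their median of -0.21 lay between -0.51 and 0.10 over the scalings and so changed sign. Of 47 tested receptors, 15 were higher in tumor cells (31.9%) and 21 in MDMs (44.7%), beside the same shares of all tested genes. Their median of 0.22 lay between -0.37 and 0.52 and changed sign as well. Another 12 ligands were held by the tumor cell table alone. RNA levels do not show that a protein was secreted or bound. The tumor cell libraries also held markers of fibroblasts, plasma cells and leukocytes, and the MDM libraries those of neutrophils. Which cells of a library made a ligand or receptor was not tested.

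The colony-stimulating factors divided by factor. Csf1, the growth factor of macrophages, was at 11.2 and 12.3 in tumor cells and 145 and 136 in MDMs, a difference of -3.57 (SE 0.09, adjusted p = 1.58e-05). Its receptor Csf1r was also higher in MDMs, with a difference of -2.43. Csf2 (GM-CSF) was held by the tumor cell table alone at 15.6 and 12.2. Its receptor chain Csf2ra was at 47.7 and 50.1 in tumor cells and 201 and 176 in MDMs, and the chain Csf2rb at 19.5 and 20.9 against 177 and 174. Ligand and receptor of Csf1 lay on the MDM side, whereas Csf2 was measured in tumor cells and its receptor was higher in MDMs.

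Oncostatin M and interleukin 1 had the ligand higher in MDMs and a receptor chain higher in tumor cells. Osm, a cytokine of the interleukin 6 family, was at 36.8 and 32.2 in tumor cells and 272 and 314 in MDMs, a difference of -3.08. Its receptor Osmr was at 3.99 and 3.94 against 0.121 and 0.0837, a difference of 4.34, and the shared chain Il6st was at 11.5 and 11.8 against 1.24 and 1.15. Il1b was at 395 and 389 against 2402 and 2219.7, a difference of -2.56, and Il1a differed by -1.12 (-0.96 on RPKM as deposited). The signalling receptor Il1r1 was at 6.12 and 6.54 against 0.685 and 0.689, a difference of 3.03, whereas Il1rap, the chain it signals with, was higher in MDMs, at 4.36 and 3.92 against 32.5 and 33.05 (difference -2.96). Both inhibitors of this pathway lay on the side of the ligand, with the decoy receptor Il1r2 at 65.5 and 64.3 against 319 and 335 and the antagonist Il1rn at 59.6 and 60.9 against 624 and 819. Il6 was the reverse, at 33.6 and 32.8 in tumor cells and 4.90 and 2.27 in MDMs, with Il6ra at 1.37 and 1.41 against 8.14 and 8.36.

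Ligands of the EGF receptor family lay with their receptors in tumor cells. Areg, an EGF receptor ligand, was at 617 and 590.5 in tumor cells and 13.4 and 17.2 in MDMs, a difference of 5.30. Ereg was at 24.6 and 24.4 against 0.760 and 0.983 and Hbegf at 91.3 and 91.7 against 37.7 and 52.2, the latter a difference of 1.04 just past 2-fold, which fell to 0.81 without MDM replicate 1. Egfr was at 2.19 and 2.50 against 0.115 and 0.0896 and Erbb3 at 7.92 and 8.36 against 0.135 and 0.270. All 5 genes were higher in both tumor cell libraries. Gas6 and Pros1, which bridge dying cells to phagocyte receptors, were higher in tumor cells, by 5.97 and 1.79. Their receptor Mertk was higher in MDMs, at 2.63 and 2.59 against 5.77 and 5.61, although its difference of -1.10 was -0.94 on RPKM as deposited. Axl, which binds Gas6 too, was not called, at 23.6 and 25.2 against 12.4 and 13.4.

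Chemokine genes were higher in tumor cells or in MDMs by member. Cxcl1, a ligand of Cxcr2, was higher in tumor cells at 239 and 245 against 46.7 and 26.2, and Cxcl2, which binds the same receptor, was higher in MDMs at 3949.7 and 4028 against 1296 and 1272. Cxcr2 itself, a receptor of neutrophils, was at 8.56 and 8.71 against 81.95 and 101. Cxcl12 was at 7.36 and 6.91 against 0.209 and 0.189, its receptor Cxcr4 at 10.2 and 9.41 against 47.2 and 43.9, and its scavenger Ackr3 at 4.35 and 6.22 against 0.0730 and 0.339. Thus Cxcl12 and Ackr3 were higher in tumor cells and Cxcr4 in MDMs. Ccl2, which draws monocytes, was at 40.7 and 33.7 against 10.6 and 6.49, and its receptor Ccr2 at 1.13 and 1.41 against 3.87 and 2.75. The call of Ccr2 was lost with 1 added in place of 0.1 (-0.92) and in a fit over 8 libraries (adjusted p = 0.149 in limma). Ccl6, Ccl9, Ccl3, Ccl4 and Ccl24 were higher in MDMs, with differences between -4.13 and -1.88.

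Growth factors of vessels and stroma were also divided. Vegfa, which drives vessel growth, was higher in MDMs, at 111 and 114 against 399 and 308. Tgfb1 was higher in MDMs (difference -1.98) and Tgfb3 in tumor cells (difference 4.26). The receptor Tgfbr2 was at 19.1 and 19.2 against 8.0 and 8.08, a difference of 1.24 (0.94 with mt- genes in the sum). Pdgfa and Bmp4 were higher in tumor cells by 4.17 and 5.89. Pdgfra, a receptor that marks fibroblasts, was likewise higher there, at 7.68 and 7.34 against 0.240 and 0.267.

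**Figure D4:**
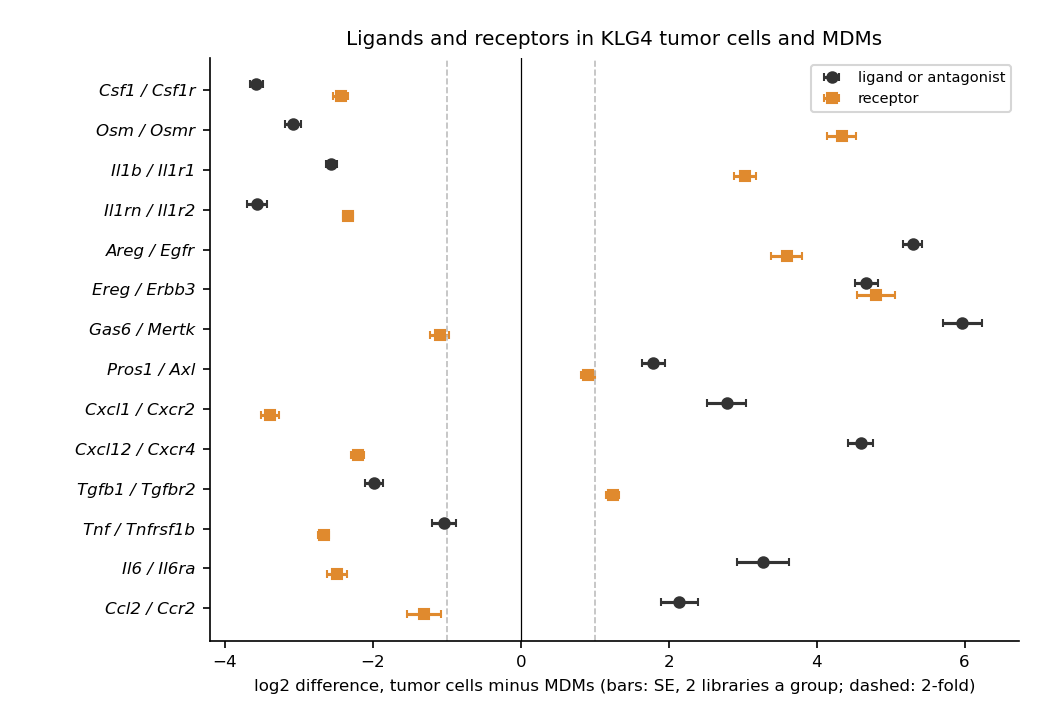
Log2 differences of KLG4 tumor cells minus MDMs, with standard errors from limma over 2 libraries a group, are plotted for 14 ligands or antagonists (circles) and a receptor beside each (squares), and dashed lines mark 2-fold. Osm and Il1b lie to the left with Osmr and Il1r1 to the right, whereas Gas6, Cxcl1, Cxcl12, Il6 and Ccl2 lie to the right with the receptor plotted beside them to the left.

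Lipid genes were examined because Gpx4 protects membrane lipids. Of 26 tested genes of triacylglycerol synthesis and lipid droplets, 6 were higher in tumor cells (10 without the nuclear copies in the sum) and 6 in MDMs, 23.1% each beside 28.9% and 21.3% of all tested genes, with a median of 0.07 that lay between -0.23 and 0.37 over the scalings and so changed sign. Of the enzymes of the early steps, Gpd1, which makes glycerol 3-phosphate, was at 7.56 and 7.07 against 0.495 and 0.713, and Gpam, which adds the first acyl chain, was at 1.81 and 2.22 against 0.0638 and 0.286. Dgat2, which adds the last acyl chain, was at 2.66 and 2.66 against 15.7 and 22.4, and Dgat1 was not called, at 36.3 and 37.5 against 55.7 and 39.1. The droplet coat gene Plin2 was at 52.4 and 57.4 against 153 and 151. Gpd1 and Gpam were thus higher in tumor cells and Dgat2 and Plin2 in MDMs, although Plin2 fell just under 2-fold under quantile scaling (-0.998). G0s2, an inhibitor of the lipase that empties droplets, was at 126 and 121 in tumor cells and 742 and 854 in MDMs, and Hilpda, a further inhibitor, at 8.71 and 8.25 against 42.5 and 40.2. Pnpla2, that lipase, was also higher in MDMs, with a difference of -1.45.

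Of 25 tested genes of lipoprotein uptake and efflux, 13 were higher in MDMs (52%) and 3 in tumor cells (12%), with a median of -1.05. Over all tested genes these shares were 21.3% and 28.9%. Soat1, which like Soat2 esterifies cholesterol, was at 3.45 and 3.30 against 16.8 and 17.2, and the efflux pumps Abca1 and Abcg1 differed by -1.35 and -1.15, the latter -0.99 on RPKM as deposited. The fatty acid carrier Fabp4 was at 3.23 and 3.21 in tumor cells and 20.5 and 27.9 in MDMs, and its relative Fabp5 at 78.1 and 74.5 against 218 and 198. Both carriers were higher in each MDM library than in each tumor cell library. Olr1, a receptor for oxidized lipoprotein, was at 24.7 and 27.7 against 128 and 145. Apoe, the lipoprotein of macrophages, was not called, at 417 and 423 against 539.7 and 403, and the MDM replicates enclosed both tumor cell values.

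Ferroptosis is the iron-dependent death by lipid peroxidation. Of its 39 tested genes, 8 were higher in tumor cells (20.5%) and 14 in MDMs (35.9%), with a median of -0.40. Over all tested genes these shares were 28.9% and 21.3%. Glutathione synthesis and its supply lay on opposite sides. Gclc, the rate-limiting enzyme of glutathione synthesis (chromosome 9, 77754535 to 77794485, plus strand), was at 123 and 126 in tumor cells and 7.07 and 6.57 in MDMs, a difference of 4.17 (SE 0.08, adjusted p = 1.25e-05). Gss, which completes the molecule, was at 5.49 and 6.47 against 1.07 and 1.16. The cystine importer chain Slc7a11 was at 23.3 and 24.5 in tumor cells and 64.9 and 61.3 in MDMs, and its partner Slc3a2 at 75.8 and 70.03 against 205 and 165. Both synthesis genes were higher in tumor cells and both importer chains in MDMs, although Slc3a2 fell under 2-fold under quantile scaling (-0.89). Gsr and Txnrd1, which recycle glutathione and thioredoxin, were higher in MDMs, with differences of -1.76 and -1.59. Aifm2, which protects membranes beside Gpx4, was at 2.36 and 2.96 against 6.35 and 7.77.

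Genes of iron storage were higher in MDMs. Fth1, the ferritin heavy chain, was at 2231 and 2259.6 against 9597 and 11328, and Ftl1, the light chain, at 141 and 145 against 387 and 357. Slc40a1, the iron exporter, was at 0.328 and 0.278 against 2.97 and 3.17. The importer Tfrc was not called, with a difference of 0.08. Among enzymes that set the kind of fatty acid in membranes, Scd1, Scd2 and Acsl3 were higher in tumor cells. Scd1 was at 42.8 and 42.8 against 1.99 and 3.09 and Scd2 at 14.3 and 14.02 against 1.49 and 2.37. Acsl3 was at 21.02 and 19.7 against 2.71 and 2.18. Acsl4, which favours polyunsaturated chains, was not called, at 22.2 and 22.3 against 14.6 and 14.6. Both tumor cell libraries lay above both MDM libraries in these 4 genes.

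Antigen presentation genes of both classes were compared. Of 22 tested genes, 4 were higher in tumor cells (18.2%) and 11 in MDMs (50%), beside 28.9% and 21.3% of all tested genes. The median was -0.96, and 7 were higher in MDMs when the nuclear copies were left out of the sum. The class II gene H2-Eb1 was at 322 and 333 in tumor cells and 142 and 133 in MDMs, and H2-Aa at 37.3 and 42.7 against 19.8 and 18.7. H2-Ab1 was not called, at 533 and 557 against 440.2 and 395. Of the class I genes, B2m was at 135 and 136 against 395 and 326. The peptide transporter Tap1 was at 3.36 and 3.87 against 18.9 and 14.2, so both were higher in MDMs. The costimulator Cd80 was at 4.10 and 4.16 against 31.8 and 42.6, and Cd40 was at 2.30 and 2.74 against 1.17 and 0.953. The members higher in tumor cells were H2-Aa, H2-Eb1, H2-DMb2 and Cd40, and all 4 fell under 2-fold with mt- genes in the sum (0.74, 0.94, 0.71 and 0.89). H2-Aa (0.95) did so without tumor cell replicate 2 as well, and H2-DMb2 (0.97 and 0.68) without tumor cell replicate 1 or MDM replicate 1.

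Of 23 tested checkpoint and phagocytosis genes, 12 were higher in MDMs (52.2%) and 3 in tumor cells (13%), with a median of -1.10. Over all tested genes these shares were 21.3% and 28.9%. Cd274 (PD-L1) was at 46.2 and 48.2 in tumor cells and 511 and 499 in MDMs, a difference of -3.42 (SE 0.07, adjusted p = 1.25e-05). Sirpa, which carries a signal against engulfment, was at 14.1 and 12.7 against 69.4 and 68.02, and its ligand Cd47 was at 9.88 and 9.27 against 22.1 and 27.001. Both ends of that signal were higher in MDMs. Nos2, which makes nitric oxide from arginine, was at 0.462 and 0.472 against 11.5 and 13.8. Nectin2, a ligand of Tigit, was at 19.3 and 18.1 against 0.361 and 0.662, and Tigit was held by the tumor cell table alone at 18.1 and 21.9. The T cell marker Trac was held there too, at 10.3 and 12.5, and which cells made Tigit was not tested. Anxa1 and Mfge8, which take part in the removal of dying cells, were the other members higher in tumor cells, by 1.52 and 1.13, the latter under 2-fold with mt- genes in the sum (0.83).

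Complement components and receptors were compared next. Of 19 tested, 7 were higher in tumor cells (36.8%) and 5 in MDMs (26.3%), beside 28.9% and 21.3% of all tested genes, with a median of 0.10 that lay between -0.21 and 0.41 over the scalings and so changed sign. Serping1, the inhibitor of C1 (chromosome 2, 84765387 to 84775444, minus strand), was at 89.6 and 93.8 in tumor cells and 0.210 and 0.157 in MDMs, a difference of 8.34 (SE 0.15, adjusted p = 1.25e-05). C1s1, a protease of C1, was at 97.1 and 95.6 against 0.703 and 0.674. Tumor cells were also higher for C1ra, C4b, Cfb and Cd55, but the call of Cfb was lost without either tumor cell library or without MDM replicate 2 (differences of 0.66 to 1.30). The receptors C5ar1 and C5ar2 and the receptor chains Itgam and Itgb2 were higher in MDMs, as was properdin, Cfp. C1qa, the recognition subunit made by macrophages, was not called, at 27.4 and 26.5 against 25.7 and 25.8, and neither was C3, at 654 and 676 against 526 and 735.

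Of 17 tested eicosanoid genes, 4 were higher in tumor cells (23.5%) and 7 in MDMs (41.2%), with a median of -0.33. Over all tested genes these shares were 28.9% and 21.3%. Alox5, the first enzyme of leukotriene synthesis, was at 4.41 and 4.55 in tumor cells and 23.1 and 25.6 in MDMs, and its activating protein Alox5ap at 75.1 and 72.6 against 441 and 371. Both were higher in MDMs. Prostaglandin synthesis genes differed by member, with Ptgs1 higher in MDMs (1.19 and 1.84 against 7.34 and 8.93), Ptgs2 not called (56.9 and 56.8 against 86.7 and 59.2) and Ptges, which makes prostaglandin E2, higher in tumor cells (8.37 and 6.67 against 1.50 and 1.58). Hpgd, which inactivates that prostaglandin, was higher in tumor cells as well, by 3.09.

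Matrix and basement membrane genes were higher in tumor cells for 18 of 30 (60%) and in MDMs for 7 (23.3%), with a median of 2.26. Over all tested genes these shares were 28.9% and 21.3%. Lama3, a laminin chain that anchors epithelia, was at 7.94 and 7.91 in tumor cells and 0.0986 and 0.136 in MDMs. Wfdc2, a secreted protease inhibitor of airways, was at 233 and 233 against 0.929 and 1.14. Proteases split by member, with Mmp8, Mmp9, Mmp12 and Mmp19 higher in MDMs and Mmp2 and Mmp14 in tumor cells. Mmp9 was at 9.36 and 10.3 against 44.4 and 36.7, and Mmp2, which fibroblasts make, was at 27.8 and 29.2 against 2.91 and 2.88. Plau and its receptor Plaur lay on opposite sides, with differences of 2.21 and -2.39.

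Of 25 tested glycolysis and hypoxia genes, 9 were higher in MDMs, or 14 with mt- genes in the sum, and 2 in tumor cells (median -0.80). The 9 and 2 are 36% and 8%, beside 21.3% and 28.9% of all tested genes. Hk3, the hexokinase of myeloid cells, was at 5.47 and 5.17 against 66.1 and 68.9, and the lactate exporter Slc16a3 was at 5.04 and 5.25 against 67.1 and 51.6. The core enzymes Gapdh, Aldoa and Ldha were not called, with differences of 0.24, -0.13 and -0.29. Of 17 tested proliferation genes, 8 were higher in tumor cells (47.1%, beside 28.9% of all tested genes) and 0 in MDMs (median 0.90). The replication licensing gene Mcm6 was at 7.98 and 7.77 in tumor cells and 0.768 and 1.32 in MDMs, and Mcm2 at 3.01 and 2.93 against 0.738 and 0.478. Mki67, which marks cycling cells, was not called, at 16.2 and 15.4 against 12.3 and 14.7. The number of proliferation genes higher in tumor cells was 3 with 1 RPKM in place of 0.1 added to each level.

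The difference between tumor cells and MDMs was then compared with the same difference in KL mice, in a fit over 8 libraries. Of 11814 genes tested, the difference of KLG4 minus that of KL was positive, a shift toward tumor cells, for 1109, which is 9.39%, and negative, a shift toward MDMs, for 449, which is 3.8%. Shifts toward tumor cells made up 71.2% of these calls, against 81.8% on RPKM as deposited, 85.1% under TMM scaling, 86.4% with limma-voom on the recovered reads, 84.7% without the nuclear copies and 49.1% with mt- genes in the sum. The number of calls moved from 1558 to between 624 and 3447 when single libraries were left out. It was 816 without KL tumor cell replicate 1, 624 and 625 without KLG4 tumor cell replicates 1 and 2, 3447 and 2348 without KL MDM replicates 1 and 2, and 785 and 719 without KLG4 MDM replicates 1 and 2. The KL MDM libraries differed most from each other, with a chi-square of 131.6 per gene and 10.4 M counted reads in replicate 2. Xist, as deposited, was at 21.8 in KL MDM replicate 1 and 0.839 in replicate 2, so these libraries differed in sex-linked transcripts too.

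Gpx4 differed by -0.85 in KLG4 and 0.63 in KL, so the estimate for KLG4 minus KL was -1.48 (SE 0.30, adjusted p = 0.0164 in limma). On the scale of this fit it stood at 54.8 and 60.1 in KLG4 tumor cells and 90.2 and 78.9 in KL ones. In MDMs it stood at 102 and 106 in KLG4 and 45.01 and 66.2 in KL. The KLG4 tumor cell libraries were lower than the KL ones, and the KLG4 MDM libraries higher than the KL ones. The estimate for Gpx4 lost its call without KL tumor cell replicate 1, without either KLG4 tumor cell library or without either KLG4 MDM library (-1.55 to -1.39), under quantile scaling (-1.10) and without the nuclear copies in the sum (-1.20). The genes beside Gpx4 on chromosome 10 were read as well. Sbno2, the next gene, was at 106 and 109 in KLG4 and 13.7 and 18.3 in KL tumor cells, and at 378 and 360.2 and 69.5 and 63.05 in MDMs. Stk11, which lies beyond it, was at 59.8 and 59.8 in KLG4 and 24.6 and 26.5 in KL tumor cells, and at 221 and 191 and 62.5 and 67.5 in MDMs. Both genes had higher levels in KLG4 than in KL libraries of both populations, although both genotypes carry Lkb1fl/fl, and their estimates for KLG4 minus KL (0.27 and -0.44, adjusted p = 0.523 and 0.242) were not called.

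Genes of leukocytes, fibroblasts and plasma cells were among those that shifted toward tumor cells. Beside 9.39% of all tested genes, 21 of 25 macrophage identity genes, 19 of 27 innate sensing genes, 14 of 19 complement genes, 6 of 6 fibroblast genes and 6 of 8 plasma cell genes shifted toward tumor cells. In these 5 lists 0 genes shifted toward MDMs, beside 3.8% of all. Ptprc was at 25.97 and 26.6 in KLG4 tumor cells and 0.792 and 2.12 in KL ones, and the estimate was 3.92 (adjusted p = 0.00423). Spi1 was at 25.6 and 25.9 in KLG4 tumor cells and 1.59 and 3.06 in KL ones, an estimate of 3.28. In MDMs, Ptprc was at 119 and 115 in KLG4 and 104 and 86.9 in KL, and Spi1 at 116 and 102 and 93.7 and 94.9, so both genes differed between genotypes by far more in tumor cells than in MDMs. Col3a1, a fibroblast collagen, was at 68.9 and 70.9 in KLG4 and 3.48 and 5.98 in KL tumor cells, an estimate of 5.50 (5.12 and not called without KL tumor cell replicate 1). Jchain, the joining chain of secreted antibodies, was at 98.1 and 108 in KLG4 and 0.289 and 0.648 in KL tumor cells, an estimate of 7.82. The summed macrophage identity level as deposited was 288 and 387 in KL tumor cells. What part the share of leukocytes, fibroblasts and plasma cells among the sorted tumor cells had in these estimates was not tested.

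Complement genes measured in the tumor cell libraries showed the same direction, and which cells of those libraries made them was not tested. Serping1 was at 91.8 and 96.2 in KLG4 tumor cells and 3.64 and 6.37 in KL ones, an estimate of 6.29 (SE 0.70, adjusted p = 0.00259). C1s1 was at 99.5 and 98.05 in KLG4 and 3.87 and 4.92 in KL tumor cells, an estimate of 5.87 (adjusted p = 0.00074). Both genes were higher in KLG4 than in KL tumor cells. C1qa, not called in KLG4, was at 1.25 and 2.09 in KL tumor cells and 16.004 and 86.1 in KL MDMs, an estimate of 4.50 whose call was lost without any 1 of the tumor cell or KLG4 MDM libraries (4.15 to 4.85). Among secreted signals Ccl2 had an estimate of 6.23, with 41.7 and 34.5 in KLG4 and 0.547 and 0.896 in KL tumor cells. Dgat1, not called in KLG4, was at 2.56 and 4.24 in KL tumor cells against 47.1 and 53.6 in KL MDMs, an estimate of 3.55.

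Shifts toward MDMs included an AT2 gene and growth factor genes. Napsa was at 2.53 and 2.87 in KLG4 tumor cells and 10.2 and 11.4 in KL ones, and the estimate was -2.50 (adjusted p = 0.00267). In MDMs it was at 5.17 and 5.83 in KLG4 and 3.72 and 3.77 in KL, so Napsa was higher in tumor cells in KL and higher in MDMs in KLG4. Vegfa was at 113 and 117 in KLG4 and 230.3 and 216 in KL tumor cells, and at 409 and 316 and 169 and 236 in MDMs. Its estimate was -1.80 (-1.78 and not called without KLG4 tumor cell replicate 1), and that of Hbegf was -2.07. The keratin gene Krt8, by contrast, was not called, with 7.56 in KLG4 and 5.77 in KL (adjusted p = 0.389 in limma).

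**Figure D5:**
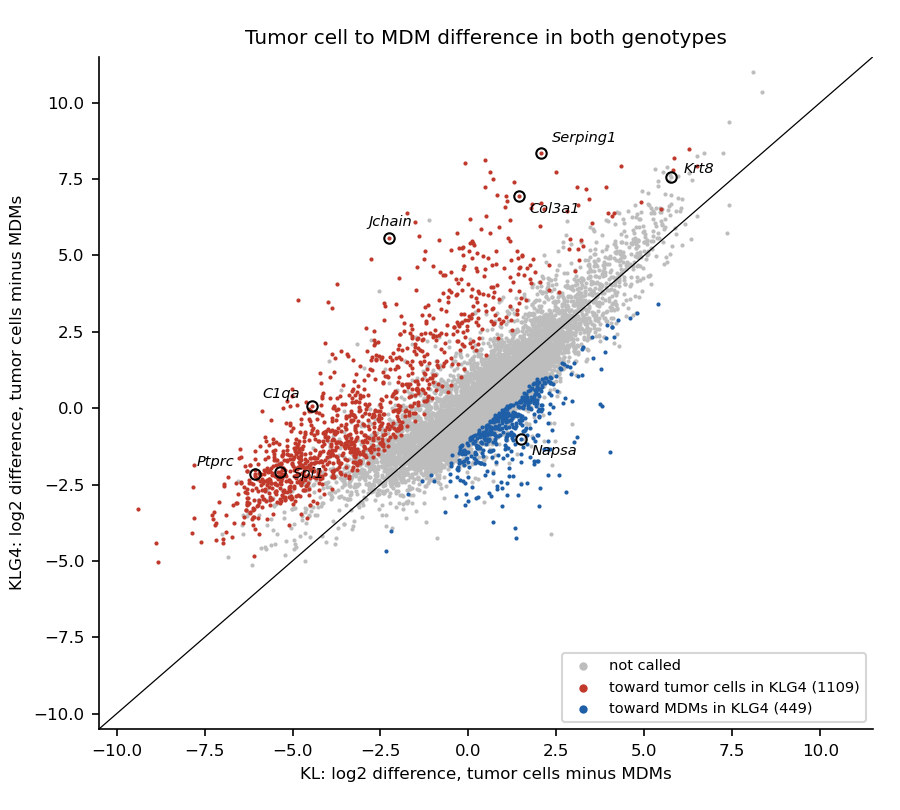
Each of the 11814 genes is placed by its log2 difference of tumor cells minus MDMs in KL mice (x axis) and in KLG4 mice (y axis), and genes called as shifted toward tumor cells (red, 1109) or toward MDMs (blue, 449) in KLG4 are coloured. Serping1, Jchain and Col3a1 lie far above the line of equal differences, Ptprc, Spi1 and C1qa lie above it at the left, and Napsa lies below it.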

How the data were processed

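RNA of sorted cells was sequenced as poly(A) libraries (non-directional, paired-end). The authors deposited RPKM per gene in separate tables for tumor cells and MDMs, each filtered on its own, after trimming with Trim Galore 0.6.4, mapping to the mouse build GRCm38 with HISAT2 2.0.5 and counting with featureCounts 2.0.0, as named in their processing notes. The study's methods name FPKM, whereas the columns of the files are headed RPKM. The authors' own columns of fold changes, statistics and p-values were not used. The library kit does not keep strand, so reads of overlapping genes cannot be told apart. Values below 2000 reads were whole multiples of 1 read within 0.05 for 100% of them, which gave the depths and allowed limma-voom on recovered reads as an alternative.

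Repeated and date-like names were dropped (21 in the tumor cell table and 19 in the MDM table). Libraries were rescaled to a common sum without mt- genes, genes under 1 RPKM in more than 2 of the 4 libraries were left out, and log2(level + 0.1) was tested with limma 3.58.1 (R 4.3.3) with an intensity trend, 2 libraries against 2, and Benjamini-Hochberg adjustment over all tested genes. The scale of log2(level + 0.1) understates the change of low genes. The genotype comparison used 8 libraries and an interaction term. Genes were named by rule, being the 10 largest differences in each direction with a mean of at least 20 RPKM in the higher group, the 10 highest levels among genes at least 4-fold different, and members of 33 lists. Immunoglobulin segments, mt- genes, pseudogenes and predicted genes were left out of the first and second parts of the rule. Some genes that the rule names are not reported here. The members and lists were chosen with earlier results of these data known. Promoter windows came from RefSeq for GRCm38.p6 and were found for 8007 of the 11503 tested genes. Groups came from the sample labels. The alternatives were other pseudocounts, filters, scalings, thresholds and fits, and leaving out each library in turn.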

Additional observations from a re-analysis of the deposited data

Results flagged for a closer look

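The difference between tumor cells and MDMs itself differed between KLG4 and KL mice for 1109 genes that shifted toward tumor cells and 449 that shifted toward MDMs in KLG4, each by a test of the interaction in limma over 8 libraries. Among the genes described, the interaction estimates (KLG4 minus KL, log2) were 7.82 for Jchain, 6.29 for Serping1, 6.23 for Ccl2, 5.87 for C1s1, 5.50 for Col3a1, 4.50 for C1qa, 3.92 for Ptprc, 3.55 for Dgat1 and 3.28 for Spi1. They were -1.48 for Gpx4, -1.80 for Vegfa, -2.07 for Hbegf and -2.50 for Napsa. With 2 libraries a group, no group was large enough for a check of single outlying samples.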

How the results depend on the processing

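No call of the comparison of KLG4 tumor cells with KLG4 MDMs reversed under any of the alternatives run. The count of 5781 calls was 5696 to 5795 when each library was left out in turn, and 5935 with limma-voom on recovered reads. It moved to 3099 of 6168 genes with a mean of at least 5 RPKM, where 1311 were higher in tumor cells and 1788 in MDMs, and to 2282 with a 4-fold threshold, since fewer genes could pass. With 1 added in place of 0.1 it was 4542. The count of 1558 calls between genotypes was 624 to 3447 when single libraries were left out, and 2556 at an unadjusted p under 0.05 with at least 2-fold. The cause of the movement between libraries was not tested. Replicate numbers were shared by the tables, and the deviations of same-numbered KLG4 libraries correlated at -0.0242 over 11503 genes. With 2 replicates of each cell type, this cannot show whether same-numbered libraries share a mouse or batch. The KL libraries were not checked. With the replicate block the counts were 5797 and 1460. Of 202 genes named in the text, 146 kept their side of the threshold in each of the up to 20 settings that gave them a value. Levels of low genes rest on few reads, at 15.9 M to 17.6 M counted reads in tumor cells and 26.0 M to 26.1 M in MDMs.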

Other observations

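Monocyte markers were divided between the populations, with 4 of 8 tested genes higher in MDMs and 2 in tumor cells (median -0.48). That is 50% and 25%, beside 21.3% and 28.9% of all tested genes. Chil3, a chitinase-like protein of monocytes and alveolar macrophages, was at 181 and 183 in tumor cells and 946 and 942 in MDMs, and F13a1, a clotting factor subunit of monocytes, at 0.998 and 0.818 against 18.9 and 16.2. Vcan, a proteoglycan that monocytes and fibroblasts make, was the reverse, at 2.46 and 2.86 against 1.34 and 0.499, but lost its call without tumor cell replicate 2 or MDM replicate 2 (1.46 and 0.94). Of 12 tested genes of alveolar macrophages, 7 were higher in MDMs (58.3%) and 3 in tumor cells (25%), with a median of -1.24. The 3 were Krt19, Krt79 and Cidec, and Krt79 lost its call without either tumor cell library or MDM replicate 1 (0.88 to 1.64). Ear1 was held by the MDM table alone at 2.79 and 3.78. Of 2 tested dendritic cell genes (Clec9a and Batf3), 2 were higher in MDMs, whereas Flt3 (1.67 and 1.68), Xcr1 (2.74 and 2.74) and Ccr7 (7.90 and 7.52) were held by the tumor cell table alone. Of 8 tested endothelial genes, 4 were higher in tumor cells (50%) and 2 in MDMs (25%), beside 28.9% and 21.3% of all tested genes. Their median was 0.71, while the tumor cell gate excludes CD31. Pecam1, which encodes CD31, was higher in MDMs and was at 3.53 and 3.95 in tumor cells and 12.4 and 16.7 in MDMs. The only tested member of the T and NK cell list was Cd2, at 25.1 and 30.004 against 5.29 and 6.36, and no member of the B cell or erythroid lists was tested.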
